A study of Homo sapiens with 6 samples.

Results

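The unfolded protein and ATF4 stress genes examined here were 38 genes of the endoplasmic reticulum (ER) stress response and the ATF4 response, taken by gene symbol from the 24462 symbols counted in each sample. They comprised 3 stress sensors, 6 transcription factors, 6 effectors downstream of ATF4 and CHOP, 8 enzymes of serine, one-carbon and asparagine synthesis, 10 ER chaperones and disulfide isomerases, and 5 genes of ER-associated degradation and protein translocation. Each member had 1 row in the files, and all 38 were among the 16314 genes kept by the filter on low counts. The lowest count of any member in any sample was 128, for CHAC1 in si-Control replicate 3.

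PC3 is an established human cell line from a bone metastasis of prostate cancer, obtained for the study from the American Type Culture Collection and grown in RPMI1640 medium with fetal bovine serum. To follow gene expression after CITED2 silencing, 3 cultures received a non-targeting siRNA (si-Control) and 3 received siRNA against CITED2 (si-CITED2), both at 80 nM for 72 h. Whole-cell RNA was sequenced from each culture, and the study describes the experiments as independent. The only difference between the groups in the labels was the siRNA, all 6 samples came from 1 line, and transient transfection was the only treatment.

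Unfolded proteins in the ER activate 3 membrane sensors, PERK, IRE1 and ATF6. PERK phosphorylates the initiation factor eIF2 alpha, which lowers general protein synthesis while ATF4 mRNA is translated more, and ATF4 with its partner CHOP then induces genes for amino acid supply, redox balance and feedback. IRE1 splices XBP1 mRNA, and spliced XBP1 and cleaved ATF6 induce the chaperones, isomerases and degradation machinery of the ER. Secretory cells rely on both arms, and the response is active in many tumours.

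Total counts ranged from 19508925 to 28936374 per sample, so that 3 counts corresponded to 0.103 to 0.155 counts per 1000000 (CPM). The targeted gene went against its label. CITED2 mRNA was at 36.5, 37.9 and 32.8 CPM in si-Control replicates 1, 2 and 3, and at 46.04, 39.1 and 41.8 CPM in the libraries labelled si-CITED2, a log2 fold change of 0.24 (SE 0.07, adjusted p = 0.0363 from the quasi-likelihood test of edgeR, adjusted by Benjamini and Hochberg's method). That call was lost without si-Control replicate 1 or 3, or without si-CITED2 replicate 1 or 3 (adjusted p 0.0536 to 0.154), and also when libraries were scaled by total counts alone (adjusted p = 0.0518). The study checked the knockdown in PC3 cells by immunoblot of the protein, which is not among the files analysed here, and every direction below is given relative to the labels. The 4 epithelial markers were detected in every library and moved in both directions. The keratins KRT8 (log2 fold change 0.24, adjusted p = 0.00260) and KRT18 (0.18, adjusted p = 0.0267) were higher in si-CITED2, while the adhesion genes EPCAM (-0.33, adjusted p = 0.00110) and CDH1 (-0.52, adjusted p = 1.67e-05) were lower, changes of the same size as those of the members. The study reports that CITED2 lowered epithelial markers, with E-cadherin (CDH1) mRNA measured by RT-qPCR in PC3 or DU145 cells. By that report silencing would raise CDH1, so its fall here also went against the label, and the reason was not tested. KLK3 was at 0 in all but 1 library. Of 7 blood cell markers, HBA1, HBA2 and HBB had 20 to 59 counts in the libraries labelled si-CITED2 against 0 to 3 in si-Control. CD68 was at 135 to 146 CPM in si-Control and at 122 to 146 CPM in si-CITED2. It made up most of the list's sum, 136 to 146 CPM in si-Control and 127 to 152 CPM in si-CITED2. Without CD68 the list summed to 0.4496 to 0.786 CPM in si-Control and to 5.16 to 6.29 CPM in si-CITED2. PTPRC and CD3E had at most 2 counts in any library. The 7 fibroblast and endothelial markers summed to 0.981 to 1.10 CPM in si-Control and to 1.01 to 1.44 CPM in si-CITED2. Within that sum, PDGFRA had 1 to 2 counts in si-Control and 7 to 11 in si-CITED2. CDH5 went the other way, with 4 to 9 counts in si-Control and 0 to 2 in si-CITED2, and the others overlapped. The part of any of these in the results below was not tested.

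Of the 38 members, 10 were higher and 5 were lower in the libraries labelled si-CITED2 at an adjusted p under 0.05, and 23 did not pass. Of all 16314 genes tested, 9.36% were called higher and 8.09% lower, against 26.3% and 13.2% of the members. Every one of the 5 genes of ER degradation and translocation was higher, as were 4 of 10 chaperones and isomerases, while the 5 members that were lower were PPP1R15A, ATF5, TRIB3, PSAT1 and PHGDH, all from the ATF4 side of the response. CEBPB was the 1 transcription factor that was higher. Changes were small, from -0.35 for PPP1R15A to 0.60 for HERPUD1 on the log2 scale, with a median of 0.07 over the 38 members against -0.001 over all genes. The 3 libraries of each group did not overlap for 16 members that were higher and 9 that were lower in si-CITED2, including all 15 members called. Over all genes this was so for 16.4% in the higher direction and 16.1% in the lower direction, against 42.1% and 23.7% of the members. The shares were not matched for level. Group means ran from 7.37 to 1350 CPM for the members and from 0 to 6289 CPM for all genes. The members were also chosen with earlier results of these data known. No member passed an unadjusted p under 0.05 together with a fold change over 2, the rule the study used for its heat map, which 1.91% of all genes passed.

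**Figure D1:**
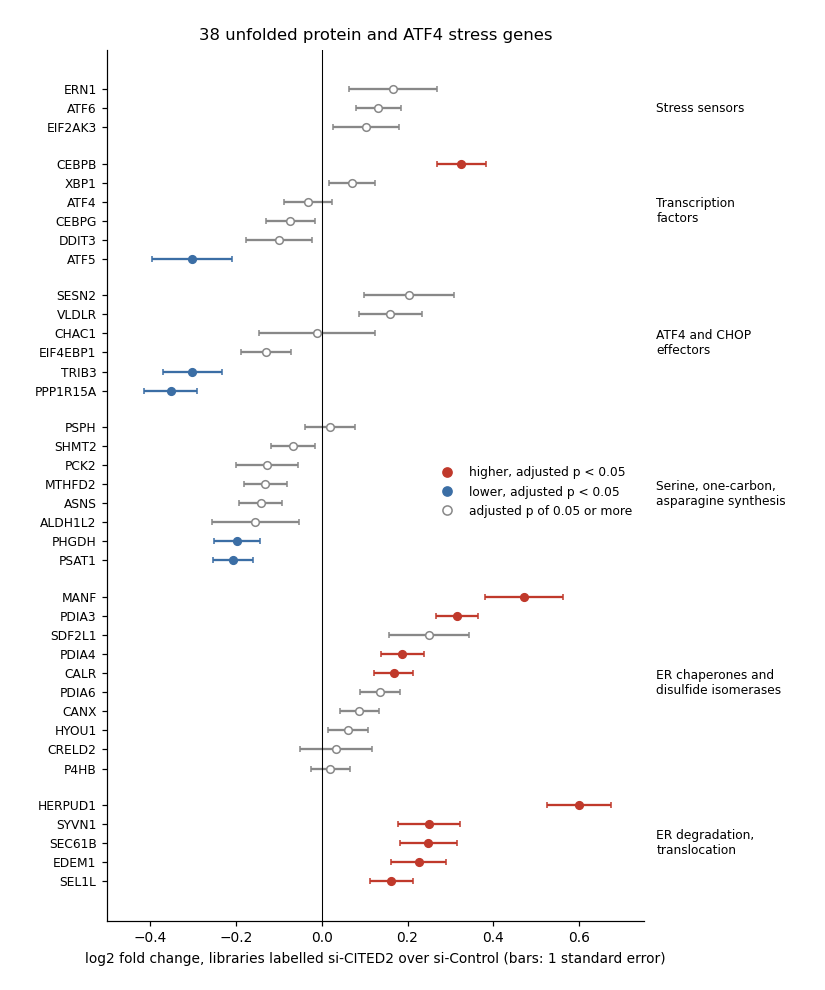
Log2 fold change of each of the 38 members in the libraries labelled si-CITED2 over si-Control (x axis), grouped by role, with bars of 1 standard error from edgeR (3 samples per group). Filled points passed an adjusted p under 0.05, and all 15 points of the chaperone and degradation groups lie above 0.

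The counts of members rested partly on single libraries. Leaving out si-CITED2 replicate 2 left 4 members higher and leaving out si-CITED2 replicate 3 left 5, in place of 10. Without si-CITED2 replicate 3 only 3 members were lower. Calls over all genes also fell in these 2 fits, from 1527 higher to 1135 and 1189, and from 1319 lower to 881 and 897. HERPUD1, MANF, CEBPB and PDIA3 remained higher, and PPP1R15A, TRIB3 and PSAT1 remained lower, in each of the 13 alternative fits.

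The 3 sensors stand at the head of the pathway, and none of them passed the test. EIF2AK3, which encodes PERK, was at 19.0, 19.8 and 19.1 CPM in si-Control and at 21.5, 20.3 and 20.4 CPM in si-CITED2 (log2 fold change 0.10, adjusted p = 0.426). ATF6, which encodes the sensor that is cleaved in the Golgi, was at 71.9, 75.1 and 74.0 CPM in si-Control and at 82.0, 81.9 and 78.3 CPM in si-CITED2 (log2 fold change 0.13, adjusted p = 0.101). For both genes the 3 si-CITED2 libraries lay just above the 3 si-Control libraries. ERN1, which encodes IRE1 alpha, was at 13.1, 16.2 and 17.3 CPM in si-Control and at 17.9, 17.4 and 16.9 CPM in si-CITED2, with si-Control replicate 1 low and si-Control replicate 3 inside the si-CITED2 range (log2 fold change 0.17, adjusted p = 0.314).

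Among the transcription factors, CEBPB rose and ATF5 fell, while ATF4, CHOP and XBP1 mRNA stayed within 0.10 of 0 on the log2 scale and did not pass. CEBPB encodes C/EBP beta, a basic leucine zipper factor that pairs with ATF4. It was at 50.9, 51.3 and 48.0 CPM in si-Control and at 63.0, 64.6 and 60.7 CPM in si-CITED2. Every si-CITED2 library was above every si-Control library (log2 fold change 0.33, SE 0.06, adjusted p = 0.000659). ATF5, a relative of ATF4 that is itself translated more when eIF2 alpha is phosphorylated, was at 21.6, 20.5 and 24.5 CPM in si-Control and at 16.03, 18.9 and 18.7 CPM in si-CITED2. All 3 si-CITED2 libraries were lower (log2 fold change -0.30, SE 0.09, adjusted p = 0.0320), but the gap between the nearest libraries was narrow. The call was lost without si-Control replicate 3 or without si-CITED2 replicate 1 or 3 (adjusted p 0.0544 to 0.129).

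ATF4 mRNA was at 302, 289.6 and 263 CPM in si-Control and at 269, 293 and 274 CPM in si-CITED2, with the 2 groups interleaved (log2 fold change -0.03, SE 0.06, adjusted p = 0.769). DDIT3, which encodes CHOP, was at 21.4, 21.0 and 22.1 CPM in si-Control and at 20.8, 20.4 and 19.0 CPM in si-CITED2. The 3 si-CITED2 libraries were the 3 lowest, without passing the test (log2 fold change -0.10, adjusted p = 0.444). XBP1, the target of IRE1 splicing, was at 72.4, 74.5 and 76.6 CPM in si-Control and at 80.3, 76.3 and 77.9 CPM in si-CITED2, with overlapping groups (log2 fold change 0.07, adjusted p = 0.430). CEBPG, another partner of ATF4, averaged 65.5 CPM ± 3.10 (SD, n = 3) in si-Control and 62.2 CPM ± 1.47 (SD, n = 3) in si-CITED2. Gene-level counts do not separate spliced from unspliced XBP1 mRNA, and they do not report how much ATF4 or ATF5 protein was made. Exons of DDIT3 and ATF5 overlap those of neighbouring genes, and the strand setting of the counting was not given in the sources used here.

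**Figure D2:**
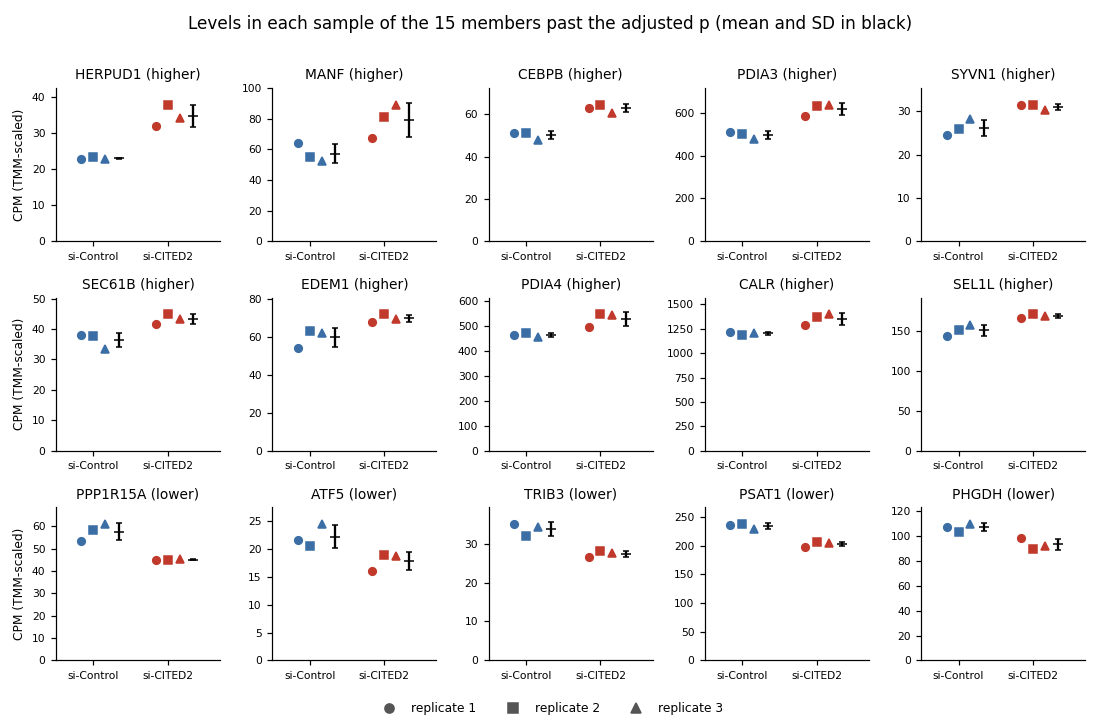
CPM scaled by trimmed mean of M values (TMM) in each of the 6 samples (y axis from 0) for the 15 members past an adjusted p of 0.05, with replicates marked by shape and the mean and SD (n = 3) in black. In every panel the 3 libraries labelled si-CITED2 lie on 1 side of the 3 si-Control libraries, with the widest relative gap for HERPUD1.

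Of the 6 effectors of ATF4 and CHOP, 2 were lower and none was higher, against 8.09% lower and 9.36% higher of all genes. PPP1R15A, which encodes GADD34 and brings a phosphatase to eIF2 alpha to restore protein synthesis, was at 53.4, 58.3 and 61.0 CPM in si-Control and at 45.1, 44.9 and 45.2 CPM in si-CITED2. The si-CITED2 libraries were close to one another and all below si-Control (log2 fold change -0.35, SE 0.06, adjusted p = 0.000662). TRIB3, a pseudokinase induced by CHOP and known to bind AKT, was at 35.1, 31.9 and 34.4 CPM in si-Control and at 26.5, 28.0 and 27.5 CPM in si-CITED2. Here too the groups were apart (log2 fold change -0.30, SE 0.07, adjusted p = 0.00499). The other 4 did not pass. EIF4EBP1, a repressor of cap-dependent translation, averaged 60.8 CPM ± 3.38 (SD, n = 3) in si-Control and 55.6 CPM ± 1.24 (SD, n = 3) in si-CITED2, with the groups apart (adjusted p = 0.155). CHAC1, a glutathione-degrading enzyme induced by ATF4 and CHOP, averaged 7.37 CPM ± 0.92 (SD, n = 3) in si-Control and 7.37 CPM ± 0.90 (SD, n = 3) in si-CITED2 (adjusted p = 0.970). SESN2, a leucine sensor and antioxidant protein, had a log2 fold change of 0.20 (adjusted p = 0.220), and VLDLR, a lipoprotein receptor, of 0.16 (adjusted p = 0.162). VLDLR passed as higher without si-Control replicate 2 (adjusted p = 0.0371).

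In the enzymes of serine, one-carbon and asparagine synthesis, 2 of 8 were lower and none was higher. The log2 fold change was below 0 in 7 of 8, with a median of -0.14. Of all 16314 genes, 8.09% were called lower and 8210 had a log2 fold change below 0. PSAT1 and PHGDH encode successive enzymes of serine synthesis. PSAT1 was at 236, 238 and 229 CPM in si-Control and at 198, 206 and 204 CPM in si-CITED2. The highest si-CITED2 library was below the lowest si-Control library (log2 fold change -0.21, SE 0.05, adjusted p = 0.00460). PHGDH, the first enzyme of the route, was at 108, 103 and 110 CPM in si-Control and at 98.0, 89.8 and 91.7 CPM in si-CITED2. All 3 si-CITED2 values were lower (log2 fold change -0.20, SE 0.05, adjusted p = 0.0162), although the call was lost without si-Control replicate 3 or without si-CITED2 replicate 2 or 3 (adjusted p 0.0557 to 0.0941).

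PSPH, which completes serine synthesis, averaged 45.96 CPM ± 1.66 (SD, n = 3) in si-Control and 46.6 CPM ± 1.03 (SD, n = 3) in si-CITED2 (log2 fold change 0.02, adjusted p = 0.873). Whether PSPH differs from the first 2 enzymes of the route was not tested. ASNS, asparagine synthetase, was at 129, 121 and 121 CPM in si-Control and at 114, 111 and 111 CPM in si-CITED2. Its groups did not overlap, and it missed the threshold (log2 fold change -0.14, SE 0.05, adjusted p = 0.0629), which it passed when libraries were scaled by total counts alone (adjusted p = 0.0353). MTHFD2, a mitochondrial folate enzyme, was at 213, 214 and 195 CPM in si-Control and at 187, 191 and 190.1 CPM in si-CITED2. Again the groups were apart without a call (log2 fold change -0.13, adjusted p = 0.0860), and without si-Control replicate 3 it was called lower (adjusted p = 0.0314). SHMT2, which makes glycine from serine in mitochondria, had a log2 fold change of -0.07. The values were -0.15 for ALDH1L2, a mitochondrial formyltetrahydrofolate dehydrogenase, and -0.13 for PCK2, the mitochondrial phosphoenolpyruvate carboxykinase. These 3 had overlapping groups (adjusted p 0.266 to 0.431).

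All 10 chaperones and isomerases had a log2 fold change above 0, with a median of 0.15, and 4 were called higher. Of all 16314 genes, 8104 were above 0 and 9.36% were called higher. MANF, an ER-resident and secreted protein that binds the chaperone BiP, was at 64.1, 55.03 and 52.1 CPM in si-Control and at 67.2, 81.1 and 89.4 CPM in si-CITED2. Replicate 1 of each group lay close together at the meeting point of the groups, while the other libraries were far apart (log2 fold change 0.47, SE 0.09, adjusted p = 0.00139). PDIA3, the disulfide isomerase that works with calreticulin and calnexin on glycoproteins, was at 511, 503 and 477 CPM in si-Control and at 586, 631 and 638 CPM in si-CITED2. The groups were well apart (log2 fold change 0.32, SE 0.05, adjusted p = 0.000248). Its processed copy PDIA3P1 had 387 to 591 counts per library against 9550 to 15559 for PDIA3, and how shared reads were assigned is not known.

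CALR, which encodes the lectin chaperone calreticulin, was at 1215, 1189 and 1202 CPM in si-Control and at 1285, 1366 and 1399 CPM in si-CITED2 (log2 fold change 0.17, SE 0.05, adjusted p = 0.0192). PDIA4, another isomerase, was at 463, 472 and 453 CPM in si-Control and at 493, 546 and 542 CPM in si-CITED2 (log2 fold change 0.19, SE 0.05, adjusted p = 0.0153). In both genes si-CITED2 replicate 1 was the nearest to si-Control. CALR lost the call without si-Control replicate 2 and PDIA4 without si-Control replicate 3, and both lost it without si-CITED2 replicate 2 or 3 (adjusted p 0.0561 to 0.120), which left 2 of the 10 genes called. PDIA6 had non-overlapping groups and missed the threshold (log2 fold change 0.13, adjusted p = 0.0572), but passed with DESeq2 (adjusted p = 0.0285) and without si-CITED2 replicate 1 (adjusted p = 0.0348).

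SDF2L1, a partner of BiP that delays the aggregation of client proteins, averaged 15.4 CPM ± 0.57 (SD, n = 3) in si-Control and 18.4 CPM ± 2.05 (SD, n = 3) in si-CITED2 (log2 fold change 0.25, adjusted p = 0.0811). CANX, the membrane-bound relative of calreticulin, was at 1023, 1075 and 1085 CPM in si-Control and at 1110.5, 1131 and 1142 CPM in si-CITED2. The groups were apart by a margin of a few percent (log2 fold change 0.09, adjusted p = 0.212). HYOU1, an HSP70-related exchange factor for BiP, had a log2 fold change of 0.06. For CRELD2, an ER protein of the same response, the value was 0.03, and for P4HB, the classical protein disulfide isomerase, it was 0.02 (adjusted p 0.438 to 0.846 for these 3, with overlapping groups).

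The 5 genes of ER degradation and translocation were all higher, against 9.36% of all genes, with a median log2 fold change of 0.25. HERPUD1, which organises the HRD1 ubiquitin ligase complex in the ER membrane, was at 22.9, 23.3 and 22.8 CPM in si-Control and at 32.2, 38.01 and 34.3 CPM in si-CITED2. The si-Control libraries differed by about 1% (coefficient of variation 1.01%) and all si-CITED2 libraries stood well above them, 1.51-fold higher by the fit (log2 fold change 0.60, SE 0.07, adjusted p = 2.17e-05). SYVN1, which encodes the HRD1 ligase itself, was at 24.5, 25.8 and 28.2 CPM in si-Control and at 31.5, 31.4 and 30.3 CPM in si-CITED2 (log2 fold change 0.25, SE 0.07, adjusted p = 0.0233). SEL1L, the adaptor of HRD1, was at 143, 151 and 158 CPM in si-Control and at 166, 171 and 168 CPM in si-CITED2 (log2 fold change 0.16, SE 0.05, adjusted p = 0.0346). For these 2 partners the groups were apart but near each other.

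EDEM1, a lectin that trims and hands over misfolded glycoproteins, was at 54.1, 63.3 and 62.1 CPM in si-Control and at 68.3, 72.1 and 69.4 CPM in si-CITED2 (log2 fold change 0.23, SE 0.06, adjusted p = 0.0219). SEC61B, a subunit of the channel through which proteins enter the ER, was at 37.9, 37.6 and 33.6 CPM in si-Control and at 41.6, 44.9 and 43.4 CPM in si-CITED2 (log2 fold change 0.25, SE 0.07, adjusted p = 0.0154). In both, 1 si-Control library stood low and the 3 si-CITED2 libraries were close together. Apart from HERPUD1, the calls in this group depended on single libraries, with 2 of 5 called without si-Control replicate 1, 3 without si-Control replicate 2, 1 without si-CITED2 replicate 2 and 2 without si-CITED2 replicate 3. SEL1L also lost its call when libraries were scaled by total counts alone (adjusted p = 0.0634).

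**Figure D3:**
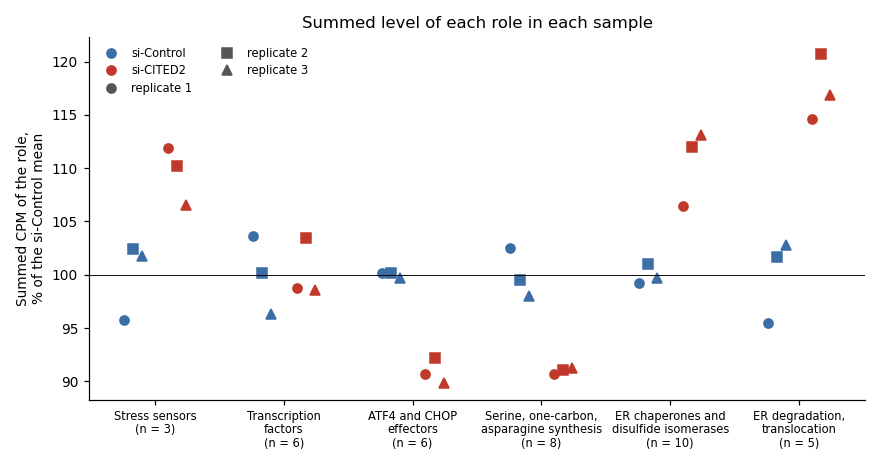
Summed CPM of the members of each role in each sample as a percentage of the si-Control mean (y axis, not starting at 0), with colour for the group and shape for the replicate. The degradation genes of the libraries labelled si-CITED2 lie at 115 to 121% and the effectors at 89.8 to 92.2% of the si-Control mean.

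Summed within each role, the libraries fell on opposite sides of si-Control for the ER genes and the ATF4 genes. The 10 chaperones and isomerases together stood at 106, 112 and 113% of the si-Control mean in si-CITED2 replicates 1, 2 and 3, and the 5 degradation and translocation genes at 115, 121 and 117%. By contrast, the 6 effectors stood at 90.7, 92.2 and 89.8%, and the 8 amino acid and one-carbon enzymes at 90.7, 91.0 and 91.2%. Single si-Control libraries lay between 95.5 and 103% of their mean for these 4 roles. The 3 sensors, none of them called, together stood at 112, 110 and 107% in si-CITED2 and at 95.8 to 102% in si-Control. The sum of the transcription factors, in which ATF4 outweighs the others, was at 98.7, 103 and 98.6% and overlapped si-Control. The 38 members took 0.681 to 0.697% of all counts in si-Control and 0.705 to 0.734% in si-CITED2. Sums are led by the most abundant genes of a role. With each gene weighted equally, the 6 effectors overlapped between the groups. Their mean log2 difference from the si-Control mean was 0.0273, 0.0168 and -0.0539 in si-Control replicates 1, 2 and 3. In si-CITED2 it was -0.0523, -0.0530 and -0.111. In bulk RNA less RNA per cell and fewer cells of a kind cannot be told apart.

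Divided by exon length, the levels of the members spanned 398-fold in si-Control. Calreticulin was highest at 632 CPM per kb, followed by CANX at 239, P4HB at 228, PDIA4 at 159 and PDIA6 at 148 CPM per kb. ATF4 stood at 113 and PSAT1 at 107 CPM per kb. The sensors were near the bottom, with ATF6 at 9.83, EIF2AK3 at 3.99 and ERN1, the lowest member, at 1.59 CPM per kb. HERPUD1 moved from 7.81 to 11.8 CPM per kb, and from place 32 to place 26 among the 38, between si-Control and the libraries labelled si-CITED2. MANF moved from 49.5 to 68.7 CPM per kb, from place 14 to place 9. Lengths are the union of exons in GENCODE 29 and may differ from the annotation used for counting, and exons of 15 members overlap those of another gene.

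The promoters of HERPUD1 and CALR are shown because these 2 genes were called higher and hold letters of the ER stress elements to which ATF6 and XBP1 are known to bind. The sequences are the 250 bases before the annotated start in RefSeq on GRCh38.p14, on the plus strand, at chr16:56931892-56932141 for HERPUD1 and chr19:12938359-12938608 for CALR. Capitals mark matches to 4 motifs, searched on both strands in windows from 250 bases before to 50 bases after the start. ERSE was searched as CCAAT and CCACG 9 bases apart, ERSE-II as ATTGG and CCACG 1 base apart, UPRE as TGACGTGG, and CARE, the element bound by ATF4 with C/EBP partners, as TGATGNAA.
HERPUD1: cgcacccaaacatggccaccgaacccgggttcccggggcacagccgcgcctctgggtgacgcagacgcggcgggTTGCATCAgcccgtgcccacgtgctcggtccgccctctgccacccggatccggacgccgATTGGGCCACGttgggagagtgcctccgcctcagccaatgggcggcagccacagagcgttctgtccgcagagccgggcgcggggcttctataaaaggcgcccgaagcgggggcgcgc
CALR: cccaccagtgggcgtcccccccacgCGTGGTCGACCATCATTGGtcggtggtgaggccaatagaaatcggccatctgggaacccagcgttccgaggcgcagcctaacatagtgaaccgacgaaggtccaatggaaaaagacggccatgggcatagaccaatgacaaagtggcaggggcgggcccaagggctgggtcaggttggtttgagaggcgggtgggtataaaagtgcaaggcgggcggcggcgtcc

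Of the 38 members, 33 had such a window. EIF4EBP1, PSPH, SHMT2, ALDH1L2 and PDIA3 had none. ERSE was found in 4 members (12.1%, against 0.0769% of all 35116 windows), ERSE-II in 3 (9.09%, against 0.0541%), UPRE in 1 (3.03%, against 0.729%) and CARE in 3 (9.09%, against 3.62%). The members were listed as known ER stress and ATF4 genes, in some of which these elements were first described, so the shares only describe the list. The other matches are shown with 10 bases on each side, read along the gene's own strand, with coordinates on GRCh38.p14.
XBP1 ERSE, chr22:28800593-28800631, minus strand: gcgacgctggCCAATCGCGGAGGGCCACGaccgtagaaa
CANX ERSE, chr5:179698768-179698806, plus strand: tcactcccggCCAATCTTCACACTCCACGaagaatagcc
CRELD2 ERSE, chr22:49918544-49918582, plus strand: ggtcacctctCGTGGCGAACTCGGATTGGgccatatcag
SDF2L1 ERSE-II, chr22:21642104-21642134, plus strand: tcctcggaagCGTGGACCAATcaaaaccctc
HYOU1 ERSE-II, far copy, chr11:119057370-119057400, minus strand: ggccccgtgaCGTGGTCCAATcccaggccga
HYOU1 ERSE-II, near copy, chr11:119057264-119057294, minus strand: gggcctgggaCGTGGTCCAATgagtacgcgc
CHAC1 CARE, chr15:40953252-40953279, plus strand: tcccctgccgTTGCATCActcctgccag
ASNS CARE, chr7:97872459-97872486, minus strand: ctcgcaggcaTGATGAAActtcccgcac

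In HYOU1 the UPRE match overlaps the far copy of ERSE-II. HERPUD1 was the single member with both an ER stress element and a CARE, at positions -117 to -107 and -176 to -169 with the annotated first base as 0. The 7 members with ERSE or ERSE-II (21.2% of 33, against 0.131% of all windows) all had a log2 fold change above 0, from 0.03 for CRELD2 to 0.60 for HERPUD1. Apart from XBP1, they belong to the chaperone and degradation roles. There all 10 and all 5 members were above 0, with or without an element, so the shared sign says nothing about the element. Of the 7, 5 were not called. Conversely, 7 of the 9 members called higher with a window held neither element, among them MANF, CEBPB and SEC61B. None of the 5 members called lower held a CARE match. A match of letters does not show binding, and its absence from a window says nothing about the factor.

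**Figure D4:**
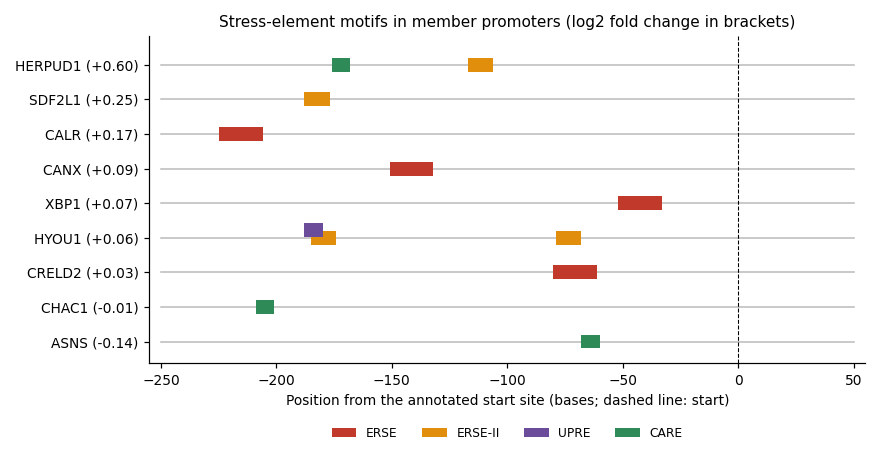
Positions of ERSE, ERSE-II, UPRE and CARE matches from 250 bases before to 50 bases after the annotated start (x axis in bases, dashed line at the start) in the 9 members with a match, ordered by log2 fold change in brackets. HERPUD1, at the top, holds ERSE-II and CARE, and all ERSE and ERSE-II matches lie upstream of the start.

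Other genes of the same pathways were listed by function, with earlier results of these data known, so their counts are not independent support. Among 38 further ER folding and quality control genes that passed the filter, 11 were higher and none was lower, with a median log2 fold change of 0.10. The shares over all genes were 9.36% higher and 8.09% lower. HSPA5, which encodes BiP, the central ER chaperone, was at 737, 796 and 748 CPM in si-Control and at 1056, 1161 and 1150.0 CPM in si-CITED2. Every si-CITED2 library stood far above si-Control (log2 fold change 0.56, SE 0.05, adjusted p = 5.86e-07). DNAJC3, a BiP cochaperone, changed by 0.51 (SE 0.06, adjusted p = 9.52e-06) and KDELR3, a receptor that returns ER proteins from the Golgi, by 0.40 (SE 0.08, adjusted p = 0.00222).

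Of 24 other targets of ATF4 and CHOP that could be tested, 5 were higher and 8 were lower, with a median log2 fold change of -0.05. Of all genes, 9.36% were higher and 8.09% lower, so this list held calls in both directions rather than in the lower direction alone. STC2, a secreted stress-induced glycoprotein, was at 85.4, 88.0 and 85.0 CPM in si-Control and at 49.7, 57.3 and 55.8 CPM in si-CITED2. All si-CITED2 libraries lay far below si-Control (log2 fold change -0.66, SE 0.06, adjusted p = 5.79e-07). KLHL24, a ubiquitin ligase adaptor, moved the other way, from 9.09, 9.26 and 9.54 CPM to 16.4, 14.4 and 17.02 CPM (log2 fold change 0.78, SE 0.10, adjusted p = 3.36e-05). GPT2, a mitochondrial alanine aminotransferase, fell by 0.31 on the log2 scale (SE 0.07, adjusted p = 0.00360).

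In the lists around eIF2 and tRNA charging no gene was higher, and the share that was lower is read against the 8.09% of all genes. Of 10 eIF2 alpha kinases, phosphatase and eIF2B genes, 1 was lower, the eIF2B subunit EIF2B4 (log2 fold change -0.18, SE 0.06, adjusted p = 0.0465), and that call was lost without each single library other than si-CITED2 replicate 2, with DESeq2 and with the replicate block. Of 12 tRNA synthetases known as ATF4 targets, 1 was lower, the alanyl-tRNA synthetase AARS1, listed as AARS (log2 fold change -0.15, SE 0.04, adjusted p = 0.0268). That count was 2 without si-Control replicate 1 and 0 without si-Control replicate 2 or 3 or si-CITED2 replicate 2 or 3. Of 8 other cytosolic synthetases, FARSB (-0.30, SE 0.05, adjusted p = 0.000204) and FARSA (-0.18, SE 0.05, adjusted p = 0.0282), the 2 subunits of phenylalanyl-tRNA synthetase, were lower. In this list the count was 1 without si-Control replicate 1 or 3, without si-CITED2 replicate 2 or 3 and with the replicate block, and 3 without si-CITED2 replicate 1, with total counts alone and with DESeq2.

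**Figure D5:**
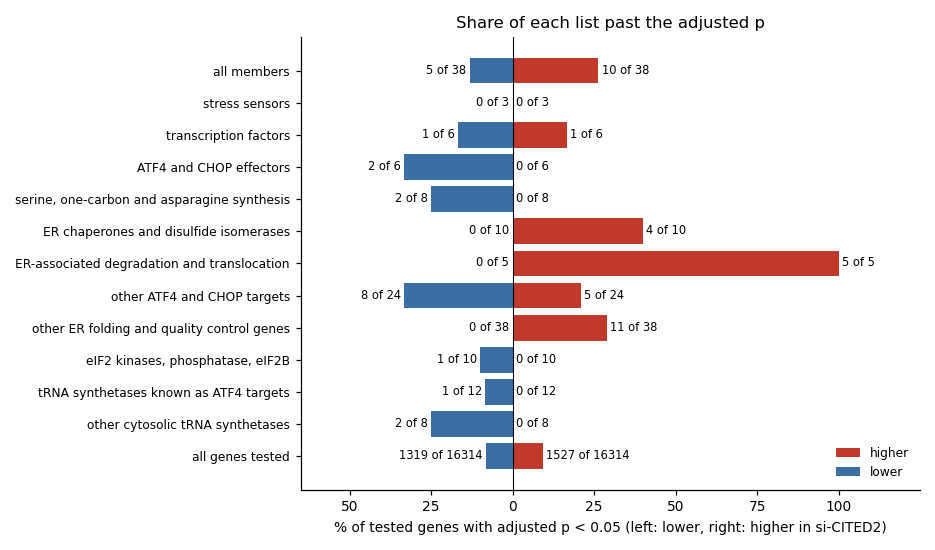
Percentage of the tested genes of each list with an adjusted p under 0.05 in edgeR (x axis), with genes lower in the libraries labelled si-CITED2 drawn to the left of 0 and higher ones to the right, and counts beside the bars. The degradation and translocation genes reach 5 of 5 higher, against 1527 of 16314 over all genes.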

How the data were processed

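RNA-seq was available for 6 PC3 cultures, 3 per group. The authors deposited a file per sample that lists each gene symbol with its unnormalized read count. Per the labels, RNA was extracted with Trizol, libraries were made with a SMARTer mRNA-seq kit, and the submitters' processing notes name TopHat, edgeR and hg19 without versions or roles; the counting program, annotation and strand setting are not given in the sources used here. These settings decide how reads of overlapping genes or copies are assigned. Where a symbol had several rows (286 symbols, no member), only the row with the highest total count was used. The groups were compared in edgeR 4.0.16 under R 4.3.3 (filterByExpr, TMM, glmQLFit and glmQLFTest, no block), with Benjamini-Hochberg adjustment over all 16314 genes tested and a threshold of 0.05. The standard error was the absolute log2 fold change divided by the square root of F. CPM is the count per 1000000 of the TMM-scaled library. The common biological coefficient of variation was 0.0614. An exact permutation test of 3 against 3 cannot go below 0.1, so no single-gene permutation p is given. Floors of 3 counts cover counting error only.

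The members and lists were chosen with earlier results of these data known. All 38 members are named, and of each further list the 3 genes with the largest absolute log2 fold change among those past the threshold. Promoter windows came from RefSeq and lengths from GENCODE 29. The fit was tested on simulated counts. DESeq2 1.42.0 and 12 other settings were tried as alternatives. Replicates of a group differed by more than counting noise (chi-square per degree of freedom 2.79 to 7.47). Some marker genes are not reported here.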

Additional observations from a re-analysis of the deposited data

How the results depend on the processing

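Under the 7 settings that keep all 6 samples (edgeR's RLE scaling, total counts without TMM, no filter beyond 1 count, at least 10 counts in every sample, DESeq2, the replicate number as a block, and summed rows of a symbol), every member kept its direction. Between 36 and 38 of the 38 members kept their side of the threshold, the exceptions being SEL1L, ASNS and PDIA6. Leaving out each library in turn gave 4 to 10 members higher and 3 to 5 lower. Over all genes it gave 1135 to 1519 higher and 881 to 1328 lower. In those fits the log2 fold change of ATF4 ranged from -0.0874 to 0.0125, of CHAC1 from -0.114 to 0.0741, of PSPH from -0.0093 to 0.0441 and of CRELD2 from -0.0515 to 0.0917, none of them called. The cause was not tested. At a fold change over 1.5 in place of 2, 1 member, HERPUD1, passed the heat map rule. Same-numbered samples did not deviate together (correlation of deviations -0.04, 0.03 and -0.01 for replicates 1, 2 and 3). These correlations cannot show whether same-numbered samples were prepared as pairs. With the replicate block, 9 members were higher and 5 lower, and 1405 and 1154 of all genes, and SEL1L was the 1 member whose call changed (adjusted p = 0.0514). No setting moved the median of all genes by as much as 0.1 on the log2 scale. With 3 samples per group, the log2 fold changes of the 23 members not called ran from -0.15 to 0.25, and the lack of a call does not show that the groups are equal.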
